A study of Mus musculus with 12 samples.

Results

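Composite-exon intronic polyA sites (PASs) that lie far upstream of the last exon of their gene were examined in mouse hippocampal slices after long-term potentiation (LTP). A PAS was counted here if the deposited list gave it the region label intron_Comp, if its gene was on 1 chromosome and 1 strand, and if it lay more than 50000 nt upstream, in the direction of transcription, of the first PAS of the 3′-most exon. This gave 3144 PASs in 1177 genes, of 13408 intron_Comp entries in 5152 genes and of 56204 PAS entries in all. The choice used position and label only and no read count.

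The libraries were made by 3′READS, a method that sequences the 3′ ends of transcripts next to the polyA tail, from hippocampal mini-slices of 3 month old male C57BL/6 mice, from which the dentate gyrus had been trimmed. Chemical LTP was induced with 50 µM forskolin for 5 min and then with forskolin, 30 mM KCl and 10 mM Ca2+ for 5 min, and control slices of the same animals were given the vehicle (0.2% DMSO) over 10 min. They were frozen 1 hr or 3 hr later, with 3 libraries in each of the 4 groups. No genetic change was made in any group, all groups shared the slicing, the trimming and the perfusion, and a slice holds neurons, glia and vessels together. At PASs, fewer cells of a type and less RNA per cell cannot be told apart in such samples.

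The count columns carry letters and numbers that name no group. They were taken as groups in the order of the study's library table, and as a check the column totals, after that table's own filter, were nearest to the library of the same place in 12 of 12 cases and differed from it by at most 0.067%, whereas the closest pair of libraries differed by 0.59%. With this assignment 12 of 16 activity-induced genes were called higher at gene level 1 hr after LTP and 15 at 3 hr. Totals ran from 9848350 to 13367287 reads per library. Library 3 of the 3 hr control group stood apart, with a mean correlation of 0.939 with the other libraries against 0.972 to 0.977 for the rest, and the tests leave it out, as the study left out outlier libraries. Its values are printed below in parentheses. Markers of dentate granule cells summed to 77.7 to 144 reads per 1000000 reads of the library (RPM) in spite of the trimming, and those of choroid plexus ranged from 2.44 to 57.9 RPM, against 15100 to 22900 RPM for excitatory neurons. In LTP libraries of 3 hr those of excitatory neurons were 17860, 19950 and 19520 RPM, and those of astrocytes 1958, 1774 and 1777. The 3 hr controls had 20360 and 20390 (and 15130) for excitatory neurons and 1664 and 1730 (and 1326) for astrocytes. Interneuron markers stood at 128.6, 117.9 and 154.6 after LTP and at 116.8 and 122.9 (and 248.2) in these controls. The part of cell composition in the changes below was not tested.

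A gene with an intronic PAS can end its transcript early. A composite terminal exon arises when an exon is not spliced to the next one and is extended into the following intron up to the PAS, so that the transcript lacks all exons farther downstream and codes for a shortened protein or for none. U1 snRNP, which binds 5′ splice sites, is known to suppress such early cleavage and polyadenylation (C/P), and the balance between splicing, transcription and the C/P factors is known to set how often these PASs are used. In neurons, activity is known to shift some genes to intronic PASs.

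The members lay a median of 102076 nt upstream of the first 3′-most-exon PAS, with quartiles of 69664 and 185224 nt. Of them, 713 lay more than 200000 nt upstream, in 254 genes, and 29 in 12 genes lay more than 1000000 nt upstream. The 3 farthest belong to *Csmd1*, a gene for a very large complement-control membrane protein, at 1615916, 1588669 and 1570767 nt. Just inside the limit were PASs of *Bahcc1* (50015 nt) and *Mier1* (50018 nt), and just outside it were those of *Ino80* (49988 nt), *Ptprz1* (49980 nt) and *Phactr4* (49950 nt). Among 2815 members whose gene has a length in the GENCODE annotation of mouse, the median distance was 66.8% of the gene's length, and it was over 90% for 567 members. These lengths come from GRCm38, another build than the mm9 of the list, and serve as a scale only. The genes are long, with a median of 144964 nt over 1054 matched genes against 24374 nt for all genes with a 3′-most-exon PAS, which the distance limit by itself requires.

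In 300 genes the list also holds an antisense upstream PAS (labelled UA), which lies near the promoter. A total of 879 members in such genes lay downstream of it, at a median of 38645 nt with quartiles of 11924 and 100224 nt. Only 123 of the 879 lay within 5000 nt of it. Most of these PASs were thus in the body of the gene rather than beside the promoter.

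Many members shared a gene. A single member was found in 561 genes, and 616 genes had more. *Cntnap5b*, a neurexin-family adhesion protein, had 25 members and *Dpyd*, the first enzyme of pyrimidine breakdown, had 23. *Prkg1*, a cGMP-dependent protein kinase, had 21, *Nav3* had 17 and *Foxn3*, a forkhead transcription factor, had 16. The members of these 5 genes summed to 90 to 326 reads per gene over the 12 libraries, and none of them had enough reads for a test.

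Most members were rare. Over the 12 libraries a member had a median of 8 reads, with quartiles of 3 and 26, and 1935 of the 3144 had 12 reads or fewer. The distribution had a long tail: 302 members had 100 reads or more, and the 10 with the most reads held 39.9% of all reads at the members. The PAS of *Ext1* alone, with 45135 reads, held 17.9%. The filter on low counts left 378 members in 318 genes for the test of abundance, 12% of the members, against 13.1% of the composite-exon PASs between 10000 and 50000 nt upstream and 16.5% of those up to 10000 nt. The other 2766 were not tested. A PAS passed this filter with about 10 reads in as few as 2 libraries, so it could pass through 1 group alone, and 45 of the 378 did so through the LTP libraries of 3 hr, 31 through those of 1 hr, 18 through controls of 1 hr and 13 through controls of 3 hr.

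**Figure D1:**
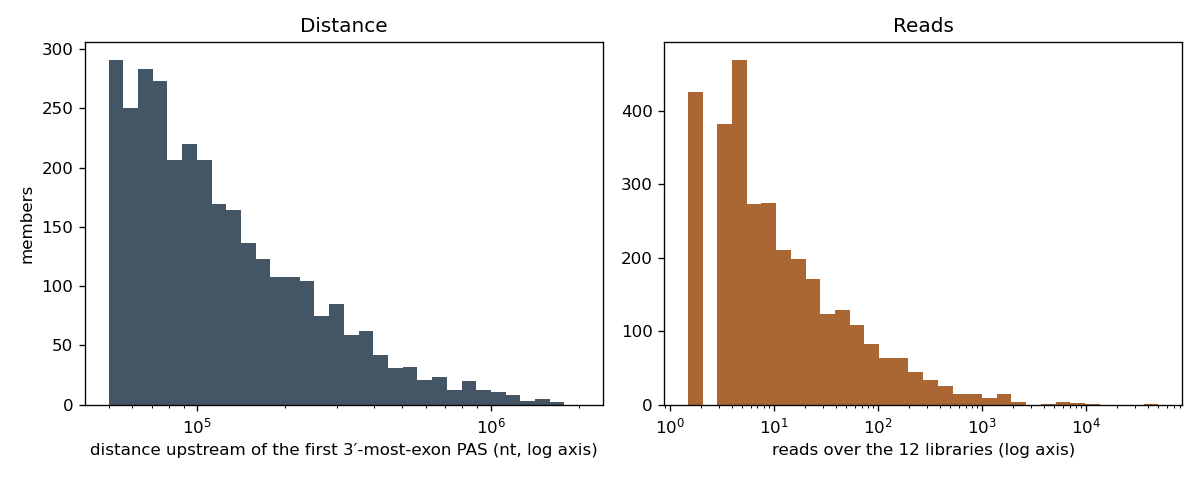
Distance of the 3144 members upstream of the first 3′-most-exon PAS in nt (left) and their reads over the 12 libraries (right), both on log axes; bars count members. The median distance is 102076 nt, the median number of reads is 8, and the right tail ends with *Ext1* at 45135 reads.

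In the 321 members that could be set against enough reads at the 3′-most-exon PASs of their gene (a mean of 10 or more), the intronic PAS took a median of 12.3% of the reads of both in controls, with quartiles of 6.49% and 30.7%. In 36 members it took over 50%, so that the early end was the main one of the pair. This median was 14.3% for composite-exon PASs between 10000 and 50000 nt and 15.2% for those up to 10000 nt.

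The 8 members with the highest level in controls were those of *Ext1*, *Atf6*, *Sfswap*, *Ube4b*, *Cstf3*, *Cdh8*, *Grlf1* and *Cacna2d3*. *Atf6*, a transcription factor of the endoplasmic reticulum stress response, has a PAS 145880 nt upstream that gave 81.5 ± 4.42 RPM (SD, n = 3) in 1 hr controls and 85.4 ± 12.9 RPM (SD, n = 3) 3 hr after LTP. It took 93.3% ± 1.67 of the reads of the pair in 1 hr controls. *Sfswap*, a splicing regulator, gave 64.5 ± 3.08 RPM (SD, n = 3) in the same controls, at 71.7% ± 1.27 of the reads. *Cdh8*, a cadherin, gave 43.4 ± 5.12 RPM at 87.4% ± 0.447 of the reads (SD, n = 3). In these genes most transcript ends of the pair were at the far upstream PAS, in every group.

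*Cstf3* codes for a subunit of the cleavage stimulation factor, itself part of the C/P machinery. Its PAS, 55996 nt upstream, gave 43.9 ± 6.18 RPM and 76.7% ± 7.38 of the reads (SD, n = 3) in 1 hr controls and 44.2 ± 3.54 RPM and 76.8% ± 3.60 (SD, n = 3) 3 hr after LTP. The log2 change in abundance at 3 hr was 0.07 (adjusted p = 0.951, edgeR). *Cacna2d3*, an auxiliary calcium channel subunit, and *Grlf1* stood at 25.2 ± 0.707 and 41.9 ± 11.6 RPM in 1 hr controls (SD, n = 3). *Ube4b*, a ubiquitin chain assembly factor, was the exception among the 8, with a PAS at 53.9 ± 5.75 RPM that took only 7.52% ± 1.58 of the reads (SD, n = 3).

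The question of the study's design was whether LTP changes the use of these early ends at either time. Abundance was tested over all 23267 PASs with enough reads, and usage, the level of an intronic PAS relative to the 3′-most-exon PASs of its gene, over all 1751 intronic PASs with enough reads. Both used edgeR's quasi-likelihood test with Benjamini-Hochberg adjustment, and a PAS was called at an adjusted p under 0.05. No column name says from which animal a library came, and p-values measure the spread between these libraries.

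At 3 hr *Ext1* was called higher in abundance and no member was called lower. *Slc9a9* also had an adjusted p under 0.05, but it is one of the 45 members that entered the test only through the LTP libraries of 3 hr, and its p is not counted as a call here. Over all PASs tested, 0.692% were called higher and 0.0086% lower. At 1 hr *Creb1* was called higher and none lower, where 0.12% of all PASs were called higher and 0.0043% lower. In usage *Ext1* alone was called at 3 hr, with 0.114% of intronic PASs called higher, and 0 members were called at 1 hr, when 0 of all 1751 were called and 18 members were higher and 5 lower at an unadjusted p under 0.05, against 2.86% and 2.34% of intronic PASs. DESeq2 called *Creb1* at 1 hr and *Ext1*, *Fbrsl1* and *Ube4b* at 3 hr in abundance. The share called over all PASs was not counted for DESeq2.

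*Ext1* codes for a glycosyltransferase that elongates heparan sulfate chains on proteoglycans of the cell surface. Its intronic PAS is on the minus strand of chromosome 15 at position 53169736 of mm9, 269920 nt upstream of the first 3′-most-exon PAS. Control libraries of 3 hr held 3181 and 2393 reads (and 1308), and those of LTP at 3 hr held 7610, 8829 and 6748. Controls of 1 hr held 3247, 2817 and 2013 reads, and LTP at 1 hr held 2815, 2840 and 1334. All 3 LTP libraries of 3 hr lay above every other library, while at 1 hr the groups overlapped.

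The *Ext1* PAS rose from 242 ± 30.6 RPM (SD, n = 2) to 618 ± 116 RPM (SD, n = 3) at 3 hr, a log2 change of 1.32 ± 0.20 (SE), or 2.50-fold (edgeR, adjusted p = 0.000427). At 1 hr the levels were 208 ± 39.6 in controls and 196 ± 52.9 after LTP (SD, n = 3 each), a log2 change of -0.10 ± 0.17 (SE, edgeR adjusted p = 0.995). The difference between the changes at 3 hr and at 1 hr was 1.42 ± 0.26 on the log2 scale (SE, edgeR adjusted p = 0.031), and *Ext1* was the only member called in this comparison, where 0.0516% of all PASs were called higher. At an unadjusted p under 0.05, 24 members were higher and 4 lower in it in abundance, where 3.63% and 2.83% of all PASs were, and 23 were higher and 6 lower in usage, where 5.48% and 1.66% of intronic PASs were. These counts come from the filter on low counts. Through the LTP libraries of 3 hr alone, 45 of the 378 members tested in abundance and 36 of the 321 tested in usage passed it. Through those of LTP at 1 hr alone, 31 and 23 did. The counts were not redone with the filter on the mean described below, so they are a description only. The *Ext1* difference lost its call in several alternative settings, given in the closing section.

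The reads at the 3′-most-exon PASs of *Ext1* were few. They were 45 and 66 (and 70) in 3 hr controls and 52, 50 and 68 after LTP. The far upstream PAS therefore already took 98.0% ± 0.911 of the pair's reads in these controls (SD, n = 2) and took 99.3% ± 0.225 (SD, n = 3) after LTP, a log2 change in usage of 1.4 ± 0.29 (SE, edgeR adjusted p = 0.034). Since the share was near its ceiling, it moved by only 1.29 percentage points. Without control library 2 of 3 hr the call was lost in both measures, with log2 changes of 1.21 in abundance (edgeR adjusted p = 0.054) and 1.00 in usage (edgeR adjusted p = 0.474). With the filter on the mean over all libraries described below, the usage did not pass (edgeR adjusted p = 0.102).

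*Creb1* codes for the cAMP-response element binding protein, a transcription factor long studied in late LTP and memory. Its member is on the plus strand of chromosome 1 at position 64580255 of mm9, 67802 nt upstream. Controls of 1 hr held 138, 140 and 158 reads there and LTP libraries of 1 hr held 252, 257 and 256. At 3 hr controls held 148 and 88 (and 83) and LTP libraries 186, 174 and 193. The groups did not overlap at either time.

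At 1 hr the *Creb1* PAS rose from 11.3 ± 1.41 to 22.3 ± 3.22 RPM (SD, n = 3 each), a log2 change of 0.95 ± 0.16 (SE), or 1.93-fold (edgeR, adjusted p = 0.00487). At 3 hr the values were 10.2 ± 2.95 RPM (SD, n = 2) in controls and 14.6 ± 0.00872 RPM (SD, n = 3) after LTP, a log2 change of 0.49 ± 0.19 that did not pass (SE, edgeR adjusted p = 0.429). This value rested on the 2 controls, with 0.7899 without control library 1 of 3 hr and 0.2305 without control library 2, neither of which passed. The changes at the 2 times were not shown to differ, with a difference of -0.47 ± 0.25 (SE, edgeR adjusted p = 0.800). The call at 1 hr was lost with all 12 libraries (edgeR adjusted p = 0.152), without control library 2 of 1 hr (adjusted p = 0.0773) and without LTP library 3 of 1 hr (adjusted p = 0.0567), with log2 changes of 0.95, 0.92 and 0.83.

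Reads at the 3′-most-exon PASs of *Creb1* ran from 593 to 675 in 1 hr controls and from 528 to 628 after LTP. The PAS took 18.5% ± 1.35 of the pair's reads in 1 hr controls and 30.4% ± 1.96 after LTP (SD, n = 3 each), and 16.2% ± 4.67 (SD, n = 2) and 24.2% ± 0.733 (SD, n = 3) at 3 hr. The log2 change in usage was 0.94 ± 0.22 at 1 hr (SE, edgeR adjusted p = 0.111) and 0.71 ± 0.25 at 3 hr (SE, edgeR adjusted p = 0.377), neither of which passed. The change in usage at 3 hr was 1.105 without control library 1 of 3 hr and 0.3964 without control library 2. With the libraries of equal column number paired, that at 1 hr passed (edgeR adjusted p = 0.0392).

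*Slc9a9* codes for a sodium/proton exchanger of endosomes. Its member is on the plus strand of chromosome 9 at position 94571196 of mm9, 559668 nt upstream. It is a rare PAS, with 1 and 1 reads (and 2) in 3 hr controls and 14, 9 and 11 reads after LTP. In 1 hr controls it had 7, 4 and 6 reads and in LTP libraries of 1 hr 8, 10 and 4. The 3 hr controls thus lay below both groups of 1 hr as well, which overlapped each other.

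From 2 reads in controls and 34 after LTP, the rate at 3 hr was 10.3 times higher, with a 95% exact interval of 2.64 to 88.5 that covers counting error only. The PAS was selected for the test by the group in which it is high, so its fitted log2 change of 3.19 ± 0.74 (SE, edgeR adjusted p = 0.0388) is given as a description only. It took 0.82% ± 0.0095 of the pair's reads in 3 hr controls (SD, n = 2) and 8.13% ± 1.79 after LTP (SD, n = 3). DESeq2 gave it no adjusted p, and with a mean of 6.82 reads over the 11 libraries it was not tested under a filter on that mean. The adjusted p was above 0.05 with libraries of equal column number paired (edgeR adjusted p = 0.0713) and without control library 1 or 2 of 3 hr, control library 3 of 1 hr or LTP library 2 of 3 hr (edgeR adjusted p = 0.402, 0.472, 0.0516 and 0.0591).

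**Figure D2:**
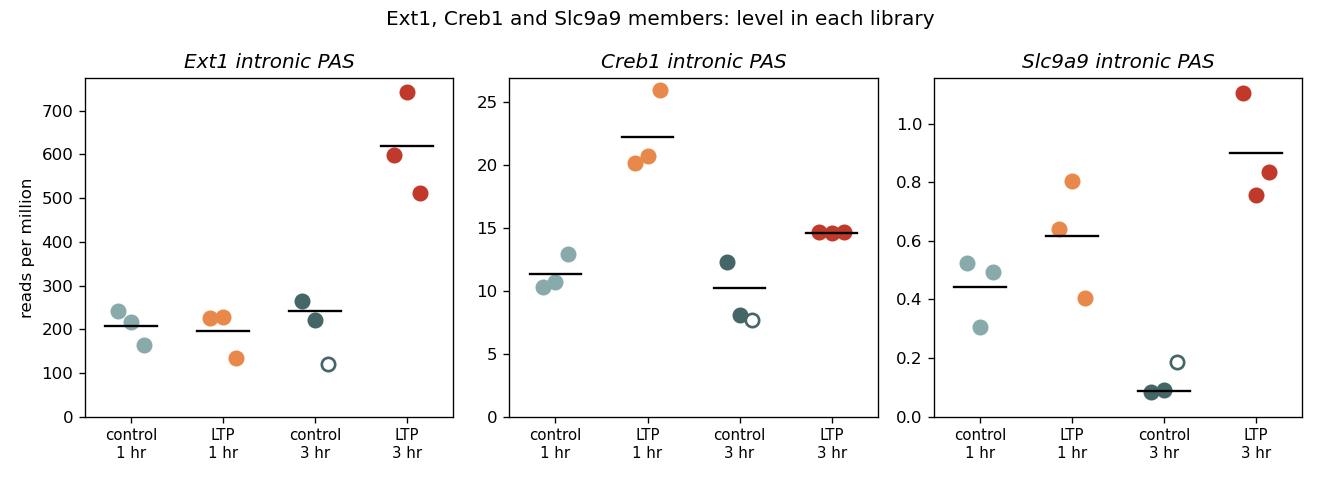
Reads per 1000000 (RPM) of the intronic PASs of *Ext1*, *Creb1* and *Slc9a9* in each of the 12 libraries; points are libraries, lines are means of the libraries tested, and the open point is the 3 hr control library left out of the tests. The *Ext1* points of LTP at 3 hr lie above all others, those of *Creb1* at LTP 1 hr lie highest in their panel, and the *Slc9a9* panel spans only 1 to 14 reads per library.

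The fitted changes of the tested members lay mostly above 0 at 3 hr. At that time the median log2 change in abundance over the 378 tested members was 0.26, against 0.0043 over all PASs tested, and 273 of the 378 were positive. At an unadjusted p under 0.05, 53 were higher and 4 lower, or 14% and 1.06%, where the shares over all PASs were 5.41% and 3.01%. At 1 hr the median was 0.11 against 0.0067 over all PASs, with 19 higher and 5 lower where 2.62% and 1.96% of all PASs were. Since the filter could let a PAS in through the group where it is high, the fit was repeated over PASs with a mean of 10 or more reads over all libraries of the tests. The median over the 267 members left was then 0.2346 at 3 hr, against 0.0023 over all 20497 PASs, with 37 higher and 2 lower where 5.52% and 3.1% of all PASs were. At 1 hr it was 0.08951 against 0.003603, with 14 higher and 1 lower where 2.59% and 1.98% of all PASs were. These are counts over PASs of shared libraries and carry no test of their own.

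In usage the median log2 change at 3 hr was 0.24 over 321 members and 0.17 over all 1751 intronic PASs, which include the members, and 34 members were higher and 3 lower at an unadjusted p under 0.05, against 7.48% and 1.43% of intronic PASs. At 1 hr the medians were 0.07 and 0.0072, and without LTP library 1 of 1 hr those of the members were 0.035 in usage and 0.0591 in abundance. With the filter on the mean, 31 members of 233 were higher in usage at 3 hr and 2 lower, where 8.67% and 1.43% of intronic PASs were. At 1 hr 13 were then higher and 2 lower, where 2.64% and 2.41% of intronic PASs were. The median was 0.06066 over the members and -0.0106 over all intronic PASs. Composite-exon PASs between 10000 and 50000 nt had a median of 0.22 at 3 hr and those up to 10000 nt had 0.11, and in abundance these medians were 0.22 and 0.11 as well. With the filter on the mean the medians in usage at 3 hr were 0.1992 for the members, 0.2059 for the next set and 0.1184 for the nearest, so that the members were not the highest. No test was made between these sets.

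**Figure D3:**
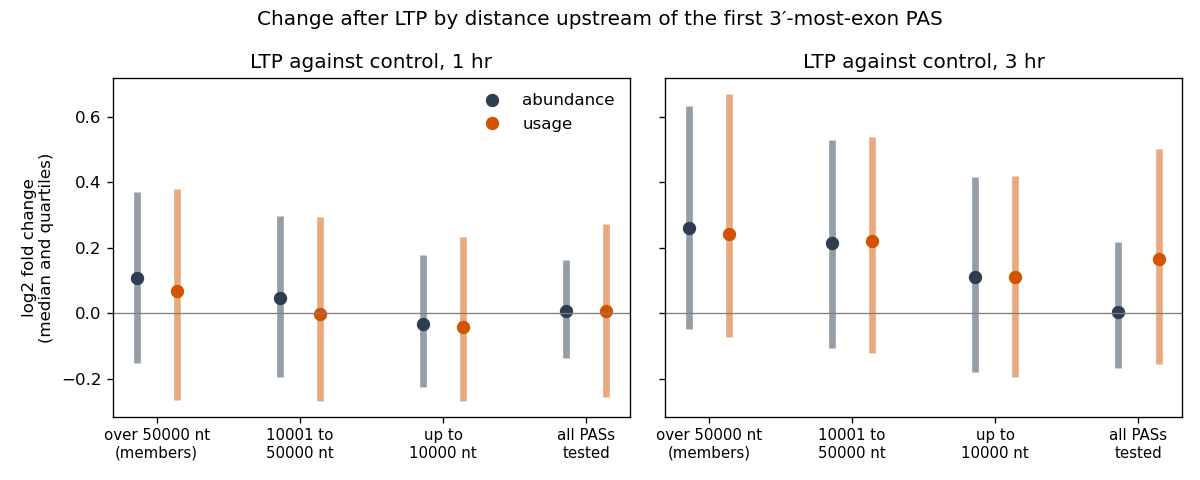
Log2 fold change after LTP at 1 hr (left) and 3 hr (right) for composite-exon intronic PASs by their distance upstream of the first 3′-most-exon PAS and for all PASs tested (all intronic PASs for usage); points are medians and bars run from the lower to the upper quartile. At 3 hr the medians of the members are 0.26 for abundance and 0.24 for usage, and the quartile bars of all sets overlap.

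Over 1013 tested genes that hold a member the median log2 change at gene level was 0.071 at 1 hr and 0.091 at 3 hr, against 0.00535 and 0.00405 over all 13238 genes tested. None of 20 tested genes for 3′ end processing factors, of 6 for the Paf1 complex, which guides elongation, or of 2 for U1 snRNP proteins was called in either direction at either time (edgeR), where 20 of all genes were called higher at 1 hr and 125 higher and 3 lower at 3 hr. Their part in the changes at the members was not tested.

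The summed level of the members in 1 hr controls was 1541, 1520 and 1531 RPM, and in 3 hr controls it was 1581 and 1501 (and 1766) RPM. It was 1665, 1555 and 1689 RPM in LTP libraries of 1 hr and 2079, 2189 and 2212 in those of 3 hr. *Ext1* made up much of the difference at 3 hr: without it the sums were 1317 and 1280 (and 1645) in 3 hr controls and 1480, 1447 and 1700 after LTP at 3 hr. The LTP libraries of 3 hr lay above both tested controls in either sum, and without *Ext1* the control library left out lay above 2 of the 3.

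**Figure D4:**
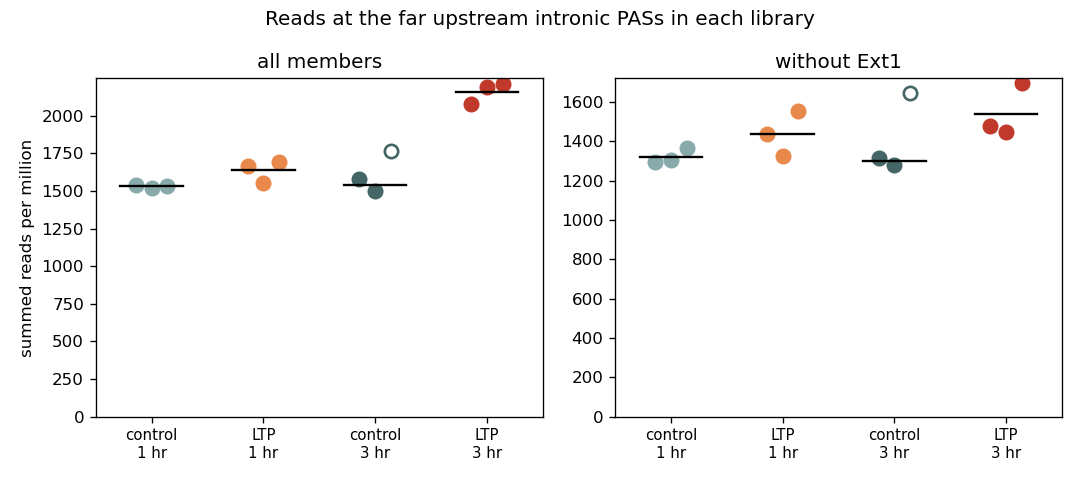
Summed reads per 1000000 (RPM) at the 3144 members in each of the 12 libraries, with all members (left) and without *Ext1* (right); points are libraries, lines are means of the libraries tested, and the open point is the 3 hr control library left out. The 3 LTP libraries of 3 hr lie between 2079 and 2212 with all members and between 1447 and 1700 without *Ext1*.

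The members without a test summed to 218 and 204 RPM (and 416) in 3 hr controls and to 258, 234 and 286 RPM after LTP at 3 hr. The number of members with a read was 1526 and 1456 (and 1282) in 3 hr controls and 1665, 1551 and 1731 after LTP, in libraries of 12042352, 10835873, 10755443, 12693889, 11886154 and 13169282 reads. Of the tested libraries of 3 hr, the deepest, LTP library 3, held the most members with a read and the shallowest, control library 2, the fewest. Control library 1 was slightly deeper than LTP library 2 and held 1526 against 1551. The part of depth in this number was not tested. The control library left out had the highest sum of rare members and the fewest members with a read.

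The study's rule for a change was an unadjusted p under 0.05 and a share of the reads that moved by over 5 percentage points, which it applied to the summed intronic PASs of a gene. With the same limits applied to each PAS by itself, and with the usage test used here, 27 members in 26 genes were higher at 3 hr and 2 were lower, where 5.25% and 0.971% of intronic PASs were, and 11 were higher and 5 lower at 1 hr, where 1.6% and 1.88% were. The shares of the 27 rose by 5.06 to 33.8 points, with a median of 9.77. They held a median of 276 reads over the 12 libraries, from 75 to 8408. Of the 27, 4 had entered the test only through the LTP libraries of 3 hr, *Slc9a9*, *Syt1*, *Gabra2* and 1 of the 2 PASs of *Rbm33*, and with the filter on the mean 24 were higher by this rule and 1 lower. Without LTP library 3 of 3 hr, 13 members were higher by this rule, and without control library 2 of 3 hr 17 were.

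Of the 11 members higher at 1 hr and the 27 higher at 3 hr, 4 were the same PASs, 36.4% and 14.8% of each: *Creb1*, *Ahi1*, *Tnr* and *9530026P05Rik*. *Ahi1*, a protein of the primary cilium, had 19, 18 and 36 reads in 1 hr controls and 47, 54 and 39 after LTP, and 21 and 10 (and 9) in 3 hr controls and 38, 24 and 38 after LTP. Its groups did not overlap at either time, but it was picked by the rule in these same libraries, so this adds no support. Its log2 changes in usage were 1.10 ± 0.32 and 1.36 ± 0.40 (SE, edgeR adjusted p = 0.528 and 0.183). *Tnr*, tenascin-R of the extracellular matrix, had 13 and 6 (and 13) reads in 3 hr controls and 21, 22 and 38 after LTP.

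*Ube4b*, the most abundant of the 27, had 413 and 548 reads (and 579) in 3 hr controls and 727, 952 and 1218 after LTP, with a log2 change in usage of 0.98 ± 0.25 (SE, edgeR adjusted p = 0.114). Its abundance was called with libraries of equal column number paired, where LTP library 3 of 3 hr had no partner (log2 change 0.68 ± 0.14, SE, edgeR adjusted p = 0.0122). *Fbrsl1* had 95 and 99 reads (and 227) against 170, 151 and 218. *Lonp2*, a peroxisomal protease, had 4 and 8 (and 2) against 29, 21 and 28. *Ube4b* and *Lonp2* did not overlap between the 3 hr groups, whereas the *Fbrsl1* library left out lay above all 3 LTP libraries. All 3 members are among the 27 picked by the rule in these same libraries, so the separation is a description only.

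*Akap9*, an anchor of protein kinase A, had 6 and 8 (and 8) reads in 3 hr controls and 13, 23 and 32 after LTP. The members of *Syt1*, the calcium sensor of vesicle release, and of *Gabra2*, a GABA-A receptor subunit, are named as having passed the filter only through the group where they are high, with 7, 11 and 12 and with 5, 11 and 28 reads after LTP. None of the 3 passed in abundance or usage at an adjusted p under 0.05.

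The 2 members lower at 3 hr were those of *St7l*, with 34 and 48 (and 20) reads in controls and 36, 34 and 28 after LTP, and of *Fras1*, an extracellular matrix protein, with 12 and 11 (and 9) against 7, 5 and 8. *Fras1* had entered the test only through the 3 hr controls. Their shares of the reads were lower in all LTP libraries than in both controls tested, but the reads at *St7l* overlapped between the groups. The 5 lower at 1 hr were *Abca17*, *Rps6ka5*, *Hip1*, *Sorl1* and *Grm8*.

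**Figure D5:**
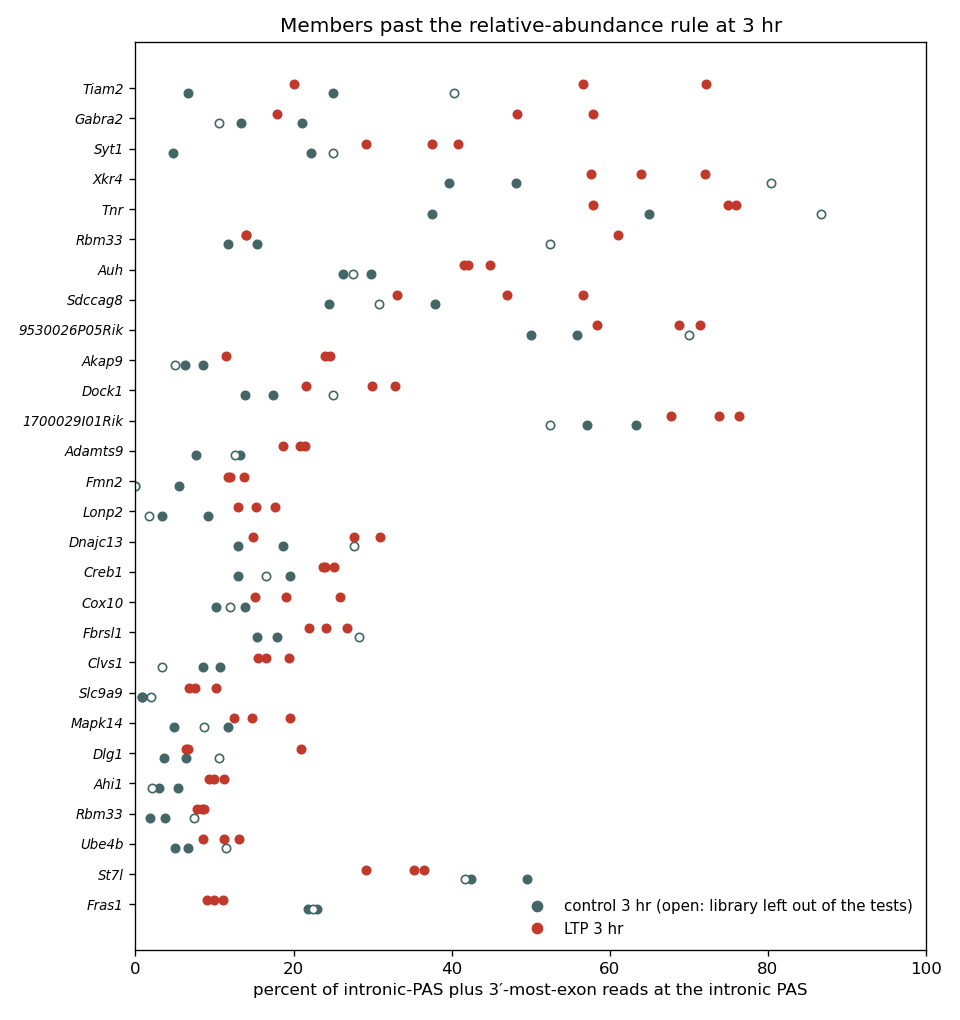
Percent of intronic-PAS plus 3′-most-exon reads at the intronic PAS in the 3 hr libraries, for the members past the relative-abundance rule that are reported here; points are libraries, with the control library left out of the tests shown open. For *Xkr4*, *Tnr*, *Rbm33* and *Fbrsl1* the open point lies within or above the LTP points, whereas for *Creb1*, *Auh*, *Ahi1* and *Slc9a9* it lies below them. All were picked by the rule in these same libraries, so any separation is a description only. *Slc9a9*, *Syt1*, *Gabra2* and the *Rbm33* PAS 98254 nt upstream entered the test only through the LTP libraries of 3 hr. Both PASs of *Rbm33* are shown under the same name.

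The members fell in many gene classes. The counts of higher and lower members of each class below are at an unadjusted p under 0.05 in abundance, where 5.41% of all PASs were higher and 3.01% lower at 3 hr and 14% and 1.06% of the tested members were. With 4 to 16 tested members a class, they are given as descriptions and no class is set apart by them. The counts and medians come from the filter on low counts, which let some members in only through the LTP libraries of 3 hr. The classes were not redone with the filter on the mean. Of 85 listed synaptic and neural adhesion genes 28 held a member, with 105 members in all, and of 48 listed voltage-gated and calcium release channel genes 27 did, with 114. Few of these had enough reads: 16 adhesion members were tested, with a median log2 change in abundance at 3 hr of 0.28, and 1 was higher and 0 lower. The 15 channel members had a median of 0.06, with 0 higher and 1 lower. *Cntn1*, a contactin, had 158 to 204 reads in the tested 3 hr controls and 164 to 209 after LTP (log2 change -0.10), and *Ctnnd2*, a catenin of dendrites, had 111 to 159 and 118 to 150 (log2 change -0.15). The channel subunits *Cacnb2*, *Trpc4* and *Ryr3* had log2 changes of 0.06, 0.10 and 0.18.

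Presynaptic release and postsynaptic scaffold genes had 50 members in 16 of 51 genes. Of the 15 tested, 4 were higher and 0 lower at 3 hr, where 14% of the tested members and 5.41% of all PASs were higher, with a median log2 change of 0.49. *Magi2*, a scaffold protein, had PASs 1422866 and 91716 nt upstream with changes of 0.11 and 0.33, and *Dlgap1*, which binds PSD-95, had -0.13. Glutamate and GABA receptor genes had 55 members in 15 of 40 genes, of which 10 were tested, 2 higher and 0 lower against the same shares, with a median of 0.19. Of these *Grin2b*, an NMDA receptor subunit, had a change of 0.95 and *Grm8*, a metabotropic glutamate receptor, had -0.44.

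Transcription and chromatin regulators had 106 members in 31 of 82 genes, 13 of them tested. *Creb1* was the one called, and 2 were higher and 0 lower at each time, where 5.03% of the tested members and 2.62% of all PASs were higher at 1 hr and 14% and 5.41% at 3 hr, with medians of 0.21 at 1 hr and 0.49 at 3 hr. Of 4 tested members of RNA-binding and splicing genes 2 were higher, both in *Rbm33*, and the median was 1.43. The *Rbm33* PAS 98254 nt upstream had entered the test only through the LTP libraries of 3 hr, where it is high. One *Rbm33* PAS, 63272 nt upstream, had 34, 31 and 259 reads after LTP at 3 hr and 31 and 29 (and 219) in controls, so that it was high in library 3 of both groups and alike in the others.

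Members of axon guidance genes (31 in 15 of 46 genes) and of cytoskeletal genes (59 in 15 of 52) had 6 and 14 tests, with 1 and 2 higher at 3 hr, where 14% of the tested members and 5.41% of all PASs were, and medians of 0.08 and 0.28. *Nrp1*, a receptor of semaphorins and VEGF, had 25 and 31 reads (and 44) in 3 hr controls and 60, 86 and 72 after LTP, a log2 change of 1.20 ± 0.30 (SE, edgeR adjusted p = 0.0707), and the groups did not overlap. It was called with libraries of equal column number paired, where LTP library 3 of 3 hr had no partner (log2 change 1.24 ± 0.25, SE, edgeR adjusted p = 0.015). Signalling genes of the cAMP, calcium and MAP kinase pathways had 57 members in 13 of 62 genes but 4 tests, with 1 higher and a median of 0.36. Ubiquitin ligase and trafficking genes had 24 members in 7 of 34, with 7 tests, 0 higher and 0 lower and a median of -0.01. *Park2*, the ubiquitin ligase parkin, with a PAS 1163978 nt upstream, had 100 and 86 reads (and 224) in 3 hr controls and 79, 106 and 126 after LTP.

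Of 22 listed 3′ end processing factors *Cstf3*, *Fip1l1* and *Wdr33* held the 4 members of that list. *Wdr33*, the subunit that reads the AAUAAA signal, had one at 102 and 94 reads (and 222) in 3 hr controls and at 160, 150 and 166 after LTP, a log2 change of 0.52 that did not pass (edgeR adjusted p = 0.321), and its other PAS changed by 0.11. *Fip1l1*, another subunit of the C/P machinery, changed by 0.12.

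Between control slices of 1 hr and of 3 hr, 2 members were called. It is not stated whether the slices of the 2 times came from the same animals, so time and animal cannot be told apart here. No member was called in abundance, where 0.172% of all PASs were called higher and 0.0817% lower, and 18 were higher and 18 lower at an unadjusted p under 0.05, against 5.23% and 4.84%. In usage 22 were higher and 14 lower at that p, against 3.83% and 4.8% of intronic PASs. The PAS of *Bmpr1b*, a BMP receptor, was called lower in usage at 3 hr (log2 -4.23 ± 0.84, SE, edgeR adjusted p = 0.0171), and that of *4921517L17Rik* was called higher in usage (log2 1.89 ± 0.38, SE, edgeR adjusted p = 0.0171), each 0.0571% of intronic PASs. *Bmpr1b* had 10, 18 and 41 reads in 1 hr controls and 1 and 2 (and 12) in 3 hr controls. Markers of choroid plexus stood at 3.44, 7.14 and 57.9 RPM in the same 1 hr controls and at 2.82 and 3.60 (and 31.7) in those of 3 hr. Their part in the *Bmpr1b* reads was not tested. *4921517L17Rik* had 19, 33 and 34 reads in 1 hr controls and 29 and 30 (and 53) in 3 hr controls, while its share of the reads was 39.2% and 72.0% on average.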

How the data were processed

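The deposited table gives raw read counts per PAS; per the labels and the submitters' processing notes the authors mapped the reads to mm9 with Bowtie2, and by the study's methods they took reads with at least 2 unaligned Ts as PAS reads and clustered sites within 24 nt. Genes, positions and region labels were used as listed, and 0 count columns were left out. The members and gene lists were chosen with earlier results of these data known. The limit of 10000 nt between nearer sets was set here. Where a gene symbol stood for 2 places the gene was left out, and 5 members are listed under more than 1 gene.

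Abundance was tested on the counts with edgeR 4.0.16 (glmQLFit, glmQLFTest, TMM, filterByExpr) in 1 fit of the 4 groups without control library 3 of 3 hr. Usage was tested with the same tool on intronic counts with the log of the gene's 3′-most-exon count plus 1 as offset, in genes with a mean of 10 or more such reads; the study used DEXSeq, which was not run here. Both fits were first tested on simulated data with a single fixed spread between libraries. Changes were placed there only in intronic PASs with more reads than most tested members have. The simulation therefore does not show how the fits behave at the low counts of most members. SE is the absolute log2 change divided by the square root of F. RPM are reads per 1000000 of the library's total. Named members are those called, the 8 highest in controls, the 5 genes with the most members, genes the study names, the 3 nearest to each side of the limit, the 3 farthest, the most read members of each list, and those called for a difference between times. Members past the relative-abundance rule, those called between control times and further members given as examples were named after their values were seen. Alternatives covered scaling, filtering (also by a mean of 10 or more reads, added after seeing the data), DESeq2 1.42.0, left-out and added libraries, the pairing of equal column numbers, the usage reference and the call rule. Genome sequence of mm9 was not used here, so no sequence is printed. Intervals cover counting error only, since PCR reads are not independent molecules. Some members that these rules name are not reported here, and counts include them.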

Additional observations from a re-analysis of the deposited data

Results flagged for a closer look

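The change of the *Ext1* intronic PAS after LTP differed between the 2 times. The effect at 3 hr minus that at 1 hr was 1.42 on the log2 scale in abundance (SE 0.26, edgeR adjusted p = 0.031), from log2 changes of 1.32 and -0.10. In usage the same difference was 1.52 (SE 0.38) and did not pass (edgeR adjusted p = 0.213).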

How the results depend on the processing

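The median log2 change of the members stayed above 0 in all settings run at 3 hr, from 0.19 to 0.33 in abundance and from 0.20 to 0.36 in usage, and at 1 hr ran from 0.0591 to 0.1254 and from 0 (without a filter) to 0.09542, with 0.1944 without a filter on low counts (3029 members) and 0.327 and 0.360 without control library 1 of 3 hr. No called value reversed. Shares over all PASs were counted only for the main fit and, at an unadjusted p, for the filter on the mean. Other counts of members in alternative settings thus have no such share beside them. They show only how the number of members moved. Without the filter, members called higher numbered 2 at 1 hr and 8 at 3 hr in abundance and 5 at 3 hr in usage, and by the relative-abundance rule 20 were higher and 13 lower at 1 hr and 46 higher and 14 lower at 3 hr. With all 12 libraries, 0 members at 1 hr and 1 at 3 hr were called in abundance and 0 at 3 hr in usage, and the rule gave 7 higher and 2 lower at 1 hr and 4 lower at 3 hr. At an unadjusted p under 0.05 alone, abundance gave 19 higher and 5 lower at 1 hr and 53 and 4 at 3 hr, and usage 18 and 5 at 1 hr and 34 and 3 at 3 hr. Set against all other PASs of the gene, 6 members were lower by the rule at 3 hr, and set against 3′-most-exon PASs with their extensions 1 was. With a filter on the mean over all libraries in place of one that a group can pass alone, added after seeing the data, 1 member was called at 3 hr in abundance and 0 in usage (*Ext1* log2 1.399, edgeR adjusted p = 0.1017), and by the rule 2 were lower at 1 hr and 1 at 3 hr. With the members of a gene summed, a setting also added after seeing the data, *Ext1* was again the 1 called in usage at 3 hr. Next by p was *Agbl4*, which was lower and just short of the threshold (log2 -2.04 ± 0.46, SE, edgeR adjusted p = 0.0535).

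Leaving out single libraries gave 0 to 2 members called higher in abundance at 1 hr and 0 to 3 at 3 hr, and 0 to 5 in usage at 3 hr, with medians of 0.2127 to 0.327 and 0.2163 to 0.36 at 3 hr. By the rule it gave 6 to 14 higher and 3 to 8 lower at 1 hr and 13 to 28 higher and 1 to 6 lower at 3 hr. The *Ext1* difference between times lost its call with all 12 libraries (log2 1.70, edgeR adjusted p = 0.548), without control library 2 of 1 hr, 1 or 2 of 3 hr, without LTP library 2 or 3 of 1 hr and without LTP library 1 or 2 of 3 hr (log2 1.22 to 1.55 over single libraries, adjusted p from 0.0166 to 0.443). *Ext1* usage at 3 hr also lost its call with all 12 libraries (log2 1.75, edgeR adjusted p = 0.0512) and without LTP library 2 of 3 hr (log2 1.20, adjusted p = 0.164). *Slc9a9* did not pass the filter with all 12 libraries or without LTP library 1 or 3 of 3 hr. The cause of these losses was not tested.

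With a replicate block, which pairs libraries of equal column number within a time, 2 members (*Creb1* and *Slc1a3*, a glutamate transporter of glia) were called in abundance and 1 (*Creb1*) in usage at 1 hr. At 3 hr the block held only 2 pairs, since control library 3 was left out and LTP library 3, without a partner, added nothing to the contrast. From these pairs 3 members were called in abundance at 3 hr, where *Nrp1* and *Ube4b* were gained, *Ext1* kept its call and *Slc9a9* was no longer past the threshold (log2 3.25). In usage at 3 hr *Ext1* was again the 1 called. The labels number the animals, but the columns carry no animal, so the pairing rests on column order. Deviations of same-numbered libraries correlated at 0.208, 0.0195 and 0.157 at 1 hr and at 0.094 and 0.0607 at 3 hr. Those of differently numbered libraries correlated at -0.197 to 0.0556 at 1 hr and at -0.094 to 0.0333 at 3 hr. With 2 controls at 3 hr, the deviations of 1 mirror those of the other, so the values at 3 hr are not independent.

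Depth limits most members: with a median of 8 reads over 12 libraries, 2766 of 3144 did not pass the filter. Without it 3029 were tested, and all those called then were among the 378 tested with it.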

Other observations

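Library 3 of the 3 hr LTP group and library 3 of the 3 hr control group, which the tests leave out, shared high counts at single members. The *Rbm33* PAS 63272 nt upstream had 259 and 219 reads in them, against 17 to 37 in the other 10 libraries. The *Tiam2* PAS, in a gene for an activator of the GTPase Rac1, had 44 and 29 reads in them and 1 to 17 in the others. Both members were chosen after their values were seen, and both count among those higher by the relative-abundance rule at 3 hr.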
